A study of Homo sapiens with 9 samples.

Results

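The 10 main ETS transcription factor genes of KHM-5M, a human thyroid cancer cell line, were examined: ETS1, ETS2, ETV4, ETV5, ELK3, ELF1, ELF4, ERF, ETV3 and GABPA. They were taken by name from a table of 58735 genes, and all 10 were measured and passed the filter on low counts in every comparison. The ETS family was written as 28 genes, so that 18 other ETS genes served as their setting. Cells had been exposed for 24 h to the vehicle DMSO or to YK-4-279 at 0.3 μM or 1 μM before RNA was sequenced, and each of these 3 groups held 3 samples. No genotype, allele or second agent separates the groups, which share 1 parental line in culture. The paper describes this line as carrying both the BRAF V600E mutation and a TERT promoter mutation, so all groups share them. Nothing in the labels says that the samples of a group came from separate cultures, so the p-values measure the spread between these samples, which may be technical.

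YK-4-279 is a small molecule made to keep the Ewing's sarcoma fusion protein EWS-FLI1, an ETS factor, from binding RNA helicase A, and it was later applied to other ETS factors. A compound of this kind acts on proteins, whereas the values here are RNA levels. The comparisons ask whether the genes for its intended target class changed in amount, and which of them these cells contain at all.

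ETS factors share a winged helix-turn-helix domain that binds DNA at a GGAA core, and flanking bases and partner proteins separate the targets of the subfamilies. Many of them lie at the end of the RAS-RAF-MEK-ERK pathway, which is active in most thyroid cancers: ERK phosphorylates ETS1 and ETS2, the ternary complex factors such as ELK3, and the repressors ERF and ETV3, and it raises the amount of the PEA3 factors ETV4 and ETV5. In thyroid cancer, ETS factors are also known for binding new sites that promoter mutations create upstream of TERT, the catalytic subunit of telomerase.

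Library totals lay between 16903251 and 18238884 counts, so that a gene at 0 may still have up to 3 counts, equal to 0.164 to 0.177 CPM, the count relative to the whole library, counting error being the only error this covers. The SD over genes of the log2 difference between a library and the other 2 of its group lay between 0.22 and 0.271. Of the thyroid markers PAX8, a lineage factor, was present at a mean of 22.8 FPKM in DMSO, and TG, the hormone precursor, had at most 4 counts in any sample. The epithelial keratin KRT8 and the mesenchymal filament VIM had 190.5 and 454.0 FPKM, and CDH1, the epithelial cadherin, at most 5 counts. Several ETS genes are also known from blood and vessel cells, but PTPRC and CD3E, leukocyte markers, had at most 1 count and the endothelial markers CDH5 and PECAM1 at most 2 and 6 counts. KDR, the third endothelial marker, had 27 to 47 counts in every sample, at a mean of 0.286 FPKM in DMSO. FPKM is a count per kilobase of gene length scaled to the library, and only on this scale are levels of different genes compared. In bulk RNA a change in each cell and a change in which cells were present cannot be told apart.

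The 10 genes carried most of the ETS messenger RNA in these cells. They were picked as the main ETS genes with earlier results of these data known, so high shares and ranks partly follow from that choice. In DMSO they summed to 204.0 ± 2.17 FPKM (SD, n = 3), which was 85.8% ± 0.452 of the 237.7 ± 2.71 FPKM of all 28 ETS genes. ELK3, ELF4 and ETS1 led with 38.3 ± 1.54, 36.8 ± 1.59 and 35.6 ± 1.53 FPKM, and the ranges of ELK3 and ELF4, and of ELF4 and ETS1, overlapped over the 3 samples. ETV4 with 20.7 ± 0.425 FPKM and ERF with 20.3 ± 2.03 FPKM came next and also overlapped. Below them the ranges of neighbours stood apart: ETS2 had 16.3 ± 0.436, ELF1 11.9 ± 0.779, ETV5 10.2 ± 0.376, GABPA 8.03 ± 0.228 and ETV3 6.01 ± 0.159 FPKM. Of the 10, 9 were the 9 highest ETS genes in DMSO, while ETV3 ranked 11 of 28, below ELK4, a ternary complex factor with 6.95 ± 0.427 FPKM.

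**Figure D1:**
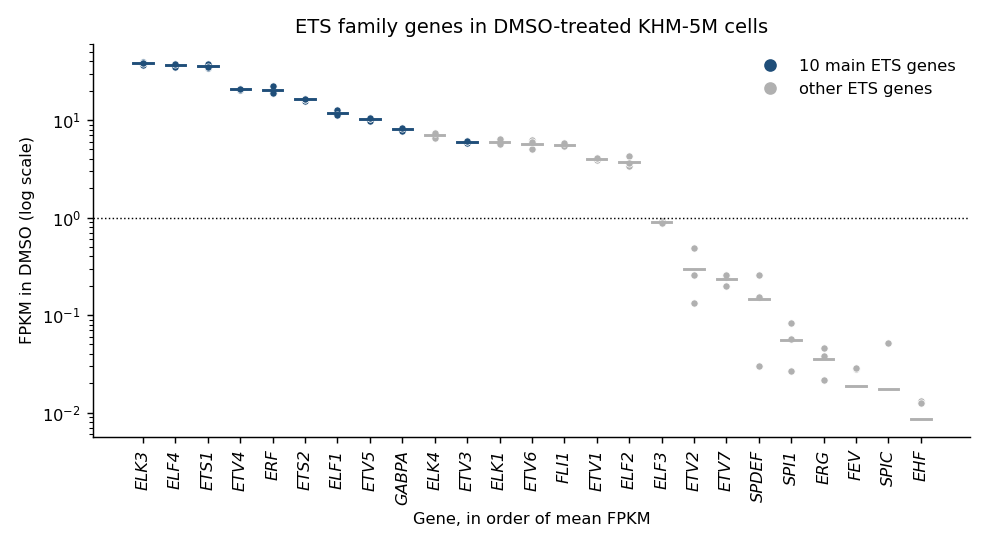
FPKM in DMSO (log scale) of the ETS genes, in order of their mean; points are the 3 samples, bars are means, the dotted line marks 1 FPKM, and genes or samples at 0 are not drawn. The 10 main genes, in dark blue, run from 38.3 FPKM for ELK3 to 6.01 FPKM for ETV3, and levels drop below 1 FPKM from ELF3 on.

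Set against all genes for transcription factors, the members lay in the upper part of the range. Of 1553 such genes in the table, 801 had a mean of at least 1 FPKM in DMSO, and ELK3, ELF4 and ETS1 ranked 29, 30 and 32 among the 1553. ETV4, ERF and ETS2 ranked 75, 79 and 110, and ETV3 ranked lowest of the members at 337.

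No single subfamily dominated. In DMSO the ELF subfamily (ELF1, ELF2, ELF4) made up 22.1% ± 0.0918 of the summed FPKM of the 28 genes, the ETS subfamily (ETS1, ETS2) 21.8% ± 1.052 and the ternary complex factors (ELK1, ELK3, ELK4) 21.5% ± 0.624. The PEA3 subfamily (ETV1, ETV4, ETV5) followed with 14.7% ± 0.221, the ERF subfamily (ERF, ETV3, ETV3L) with 11.1% ± 0.73 and GABPA with 3.38% ± 0.0609. At 1 μM the same shares were 22.3% ± 0.128, 21.6% ± 1.12, 21.7% ± 0.105, 15.0% ± 0.416, 10.9% ± 1.03 and 3.20% ± 0.29, so that the order of subfamilies changed only among the leading 3, which lay within 1 percentage point of each other in both groups. Within the ELF subfamily ELF1 went from 4.99% ± 0.386 to 5.82% ± 0.27 of the family sum, and within the ETS subfamily ETS2 went from 6.84% ± 0.246 to 6.02% ± 0.268. These shares are parts of 1 sum and were not tested.

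The pool as a whole was larger at 1 μM. The 28 genes summed to 239.3, 234.6 and 239.3 FPKM in the DMSO samples and to 261.8, 266.1 and 263.8 FPKM at 1 μM. All 3 treated sums lay above every DMSO sum, by 10.99% between the means (exact two-sided permutation test, p = 0.1, the smallest p that 3 against 3 samples can give). At 0.3 μM the sums were 240.1, 240.9 and 264.2 FPKM. They too lay above every DMSO sum, with the same p of 0.1 in the exact permutation test, but replicates 1 and 2 exceeded the highest DMSO value by less than the SD of 2.71 FPKM in DMSO.

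ETS1 and ETS2 are the founding members, activators that ERK phosphorylates next to their Pointed domain. ETS1 (ENSG00000134954, GRCh38 chr11:128458761-128587558, minus strand) had 34.3, 37.3 and 35.3 FPKM in DMSO, 35.7, 35.3 and 46.1 FPKM at 0.3 μM and 43.4, 39.2 and 40.95 FPKM at 1 μM. All 1 μM samples lay above all DMSO samples, and the highest value of the 9 was replicate 3 at 0.3 μM. ETS1 rose at 1 μM by 0.19 ± 0.058 on the log2 scale (edgeR estimate ± SE; Benjamini-Hochberg adjusted p = 0.0336). ETS2 (ENSG00000157557, chr21:38805307-38824955, plus strand) had 15.8, 16.6 and 16.4 FPKM in DMSO, 15.6, 14.7 and 21.35 FPKM at 0.3 μM and 16.0, 15.2 and 16.45 FPKM at 1 μM. DMSO and 1 μM overlapped, and the sample apart was again replicate 3 at 0.3 μM. The ETS2 difference at 1 μM was -0.05 on the log2 scale, with a 95% confidence interval from -0.18 to 0.08 (edgeR adjusted p = 0.616).

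ETV4 and ETV5 are PEA3 activators whose transcription follows ERK activity and whose proteins the COP1 ubiquitin ligase degrades. ETV4 (ENSG00000175832, chr17:43527844-43579620, minus strand) had 20.9, 20.2 and 20.9 FPKM in DMSO, 22.5, 21.3 and 20.8 FPKM at 0.3 μM and 22.9, 25.3 and 22.4 FPKM at 1 μM. The 1 μM samples lay above the DMSO samples, but ETV4 missed the threshold with a difference of 0.17 ± 0.065 on the log2 scale (edgeR adjusted p = 0.0861). ETV5 (ENSG00000244405, chr3:186046308-186110318, minus strand) had 9.74, 10.4 and 10.4 FPKM in DMSO, 9.50, 10.1 and 10.5 FPKM at 0.3 μM and 11.3, 12.02 and 12.2 FPKM at 1 μM. Each 1 μM value exceeded the other 6 values, and ETV5 rose by 0.20 ± 0.065 (edgeR adjusted p = 0.0459). DGKG, a kinase gene whose exons cover 2.8% of the ETV5 exon bases on the same strand, had 43 to 100 counts per sample against 979 to 1207 for ETV5 and rose by 0.65 ± 0.203 at 1 μM (edgeR adjusted p = 0.0406). The part of DGKG in the ETV5 value was not tested.

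ELK3, also called Net, is a ternary complex factor that joins SRF at serum response elements and represses until ERK phosphorylates it. ELK3 (ENSG00000111145, chr12:96194382-96269835, plus strand) had 39.5, 36.6 and 38.8 FPKM in DMSO, 38.8, 40.85 and 39.5 FPKM at 0.3 μM and 43.2, 44.6 and 43.4 FPKM at 1 μM. The 1 μM samples lay above the other 6 samples and close together, with a coefficient of variation of 1.68%. ELK3 rose by 0.17 ± 0.056 on the log2 scale (edgeR adjusted p = 0.0440).

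ELF1 and ELF4 belong to the ELF subfamily, best known from lymphoid cells, where ELF4 holds T cells in quiescence. ELF1 (ENSG00000120690, chr13:40932028-41061440, minus strand) had 11.5, 12.8 and 11.3 FPKM in DMSO, 11.1, 11.6 and 10.8 FPKM at 0.3 μM and 16.0, 15.4 and 14.7 FPKM at 1 μM. The lowest 1 μM sample lay above the highest of the other 6 samples. ELF1 rose by 0.35 ± 0.070 on the log2 scale, or 1.28-fold (edgeR adjusted p = 0.00345), which was the largest difference among the members. ELF4 (ENSG00000102034, chrX:130064874-130110716, minus strand) had 37.85, 35.0 and 37.6 FPKM in DMSO, 39.6, 38.3 and 41.9 FPKM at 0.3 μM and 38.4, 40.9 and 40.4 FPKM at 1 μM. Both doses lay above DMSO in all samples, yet ELF4 differed from DMSO by only 0.11 ± 0.069 at 0.3 μM (edgeR adjusted p = 0.995) and 0.10 ± 0.058 at 1 μM (edgeR adjusted p = 0.261), and neither passed.

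ERF and ETV3 are repressors of ETS sites, and ERK sends ERF out of the nucleus. ERF (ENSG00000105722, chr19:42247572-42255157, minus strand) had 22.6, 19.1 and 19.1 FPKM in DMSO, 21.4, 19.1 and 22.55 FPKM at 0.3 μM and 19.1, 24.7 and 21.1 FPKM at 1 μM. The groups overlapped, and ERF had the highest coefficient of variation of the 10 members in DMSO and at 1 μM, where it was 13.1%. Its difference at 1 μM was 0.07, with a 95% confidence interval from -0.13 to 0.28 (edgeR adjusted p = 0.635). ETV3 (ENSG00000117036, chr1:157121191-157138474, minus strand) had 5.83, 6.06 and 6.13 FPKM in DMSO, 5.94, 6.08 and 7.32 FPKM at 0.3 μM and 7.04, 7.28 and 7.50 FPKM at 1 μM. The 1 μM samples lay above the DMSO samples, and ETV3 rose by 0.26 ± 0.068 (edgeR adjusted p = 0.0183).

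GABPA is the DNA-binding subunit of GABP, which pairs with a GABPB subunit, serves genes of mitochondria and growth, and binds the mutated TERT promoter. GABPA (ENSG00000154727, chr21:25734570-25772460, plus strand) had 8.08, 7.78 and 8.23 FPKM in DMSO, 6.86, 8.47 and 7.66 FPKM at 0.3 μM and 9.11, 7.72 and 8.51 FPKM at 1 μM. The 3 groups overlapped, and the 1 μM difference was 0.06, with a 95% confidence interval from -0.11 to 0.22 (edgeR adjusted p = 0.653). GABPA is the member whose count is least certain, since exons of ATP5PF on the opposite strand cover 12.1% of its exon bases and it is not settled whether strand was used in counting. ATP5PF, an ATP synthase subunit gene with 1195 to 1488 counts per sample against 665 to 910 for GABPA, differed by -0.11 ± 0.065 at 1 μM (edgeR adjusted p = 0.256). A processed pseudogene, GABPAP, had 20 to 57 counts.

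**Figure D2:**
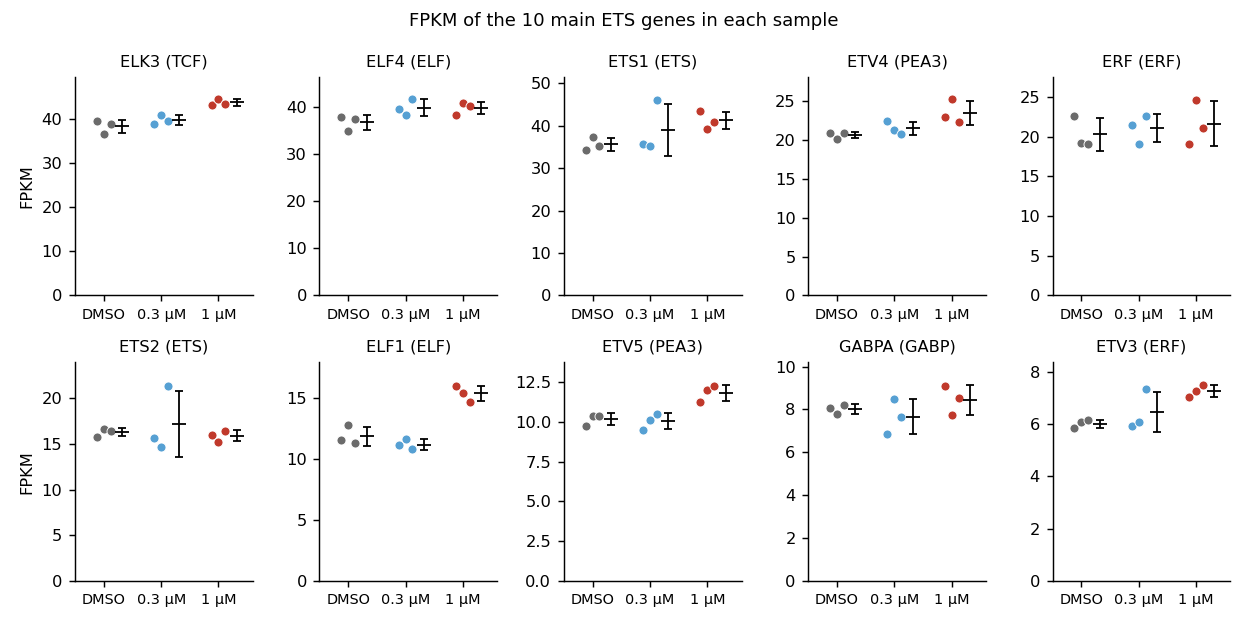
FPKM (linear axes from 0) of each main ETS gene in the 9 samples by group, with its subfamily in brackets; coloured points are samples and black bars are the mean ± SD of 3. ELF1 at 1 μM, 14.7 to 16.0 FPKM, stands above its other 6 samples, and replicate 3 at 0.3 μM stands high for ETS1, ETS2 and ETV3.

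At 1 μM against DMSO, 5 of 10 members rose at an adjusted p under 0.05 (edgeR quasi-likelihood test, Benjamini-Hochberg over all 15617 genes tested) and 0 fell. They were ELF1, ETV3, ETV5, ETS1 and ELK3, one each from 5 subfamilies. Over all genes tested, 17.6% were called, 7.67% as higher and 9.95% as lower. The members are well counted, with means of 780 to 4818 counts, and 12.5% of the 4454 genes in that range were called higher. All 5 rises were small: folds ran from 1.13 for ELK3 to 1.28 for ELF1, and 0 of 10 members also passed a 1.5-fold cutoff, which 5.51% of all genes did. The log2 difference was above 0 for 9 of 10 members, with a median of 0.17 against -0.01 over all genes tested. The 1 μM samples stood entirely above the DMSO samples in 7 members, as in 18.9% of all genes.

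**Figure D3:**
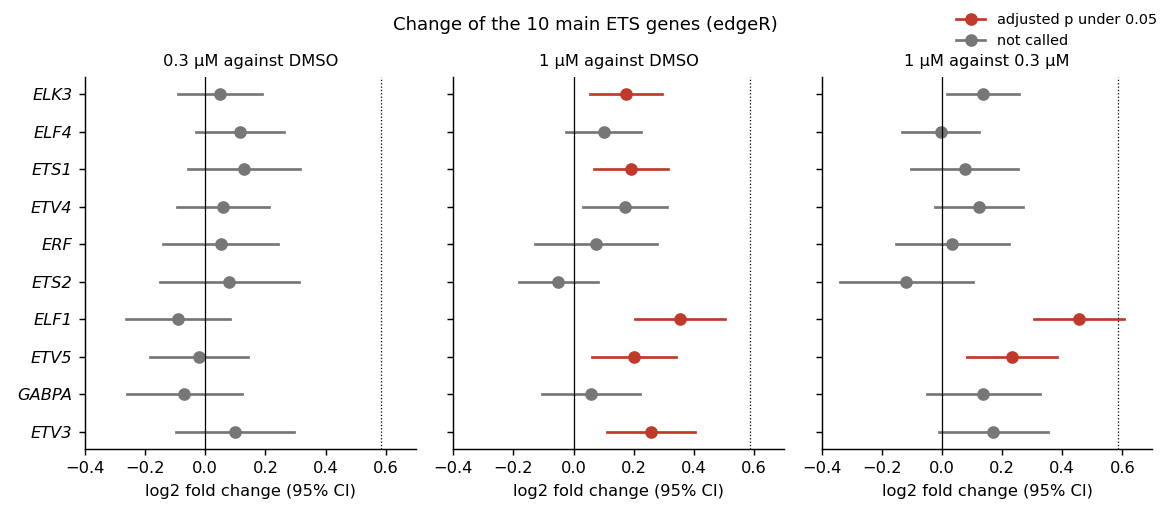
log2 fold changes with 95% confidence intervals for the 10 main ETS genes in the 3 comparisons, in order of DMSO level; red marks an adjusted p under 0.05, and the dotted line is 1.5-fold. At 1 μM 5 genes are called, each under 1.5-fold; at 0.3 μM none is called (edgeR; 0 of 10 at an unadjusted p under 0.05 and 0 by DESeq2 or limma).

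How firmly these calls held differed between the members. ELF1 was called under 13 of 13 alternative settings, with an adjusted p of at most 0.0268 in edgeR. ETV3 was called under 10 of 13, and ETS1, ETV5 and ELK3 under 7 of 13 each, with edgeR adjusted p up to 0.0873, 0.127, 0.172 and 0.129. All of these highest values came from leaving out 1 sample. Leaving out DMSO replicate 3 or 1 μM replicate 3 left 1 call, ELF1. Without DMSO replicate 1 or 1 μM replicate 1 there were 3 calls, and without 1 μM replicate 2 there were 2. With all 9 samples in a single fit there were 3. The shares of all genes called in these settings are not reported here. A loss of calls particular to the members can therefore not be told from a loss over all genes.

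**Figure D4:**
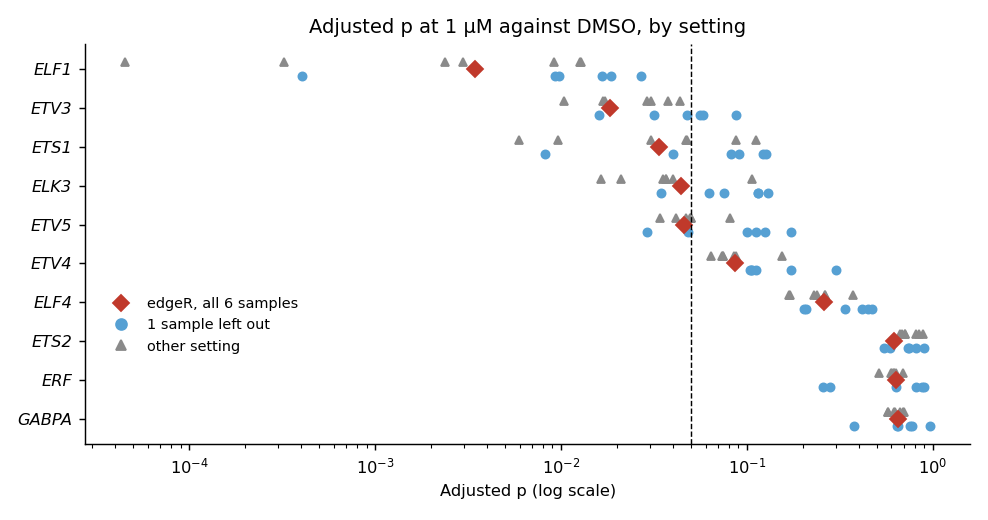
Adjusted p (log scale) of each main ETS gene at 1 μM against DMSO in edgeR with all 6 samples (red diamonds), with 1 sample left out (blue) and under the other settings (grey triangles); the dashed line is 0.05. Every ELF1 point lies left of the line, while ETV3, ETS1, ELK3 and ETV5 have points on both sides.

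At 0.3 μM against DMSO, 0 of 10 members were called and 0 had an unadjusted p under 0.05 (edgeR; DESeq2 and limma also called 0). Over the 15762 genes tested 0.0% were called, and 3.77% had an unadjusted p under 0.05. The member differences ran from -0.09 for ELF1 to 0.13 for ETS1 on the log2 scale. Replicate 3 at 0.3 μM stood apart from its group for 3 members. Its log2 differences from the other 2 samples were 0.38 for ETS1, 0.50 for ETS2 and 0.28 for ETV3, against 0.01 for GABPA and -0.01 for ELK3. GABPA differed by -0.23 in replicate 1 and 0.22 in replicate 2 of that group. Over all genes the SD of replicate 3 was 0.267, within the 0.22 to 0.271 of the libraries. Without replicate 3 at 0.3 μM the ETS1 difference from DMSO went from 0.13 to -0.01 and the ETS2 difference from 0.08 to -0.10.

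At 1 μM against 0.3 μM, which share no DMSO sample, 2 of 10 members rose and 0 fell, where 12.6% of 15583 genes were called and 5.85% were called higher. ELF1 rose by 0.46 ± 0.071 on the log2 scale, or 1.37-fold (edgeR adjusted p = 0.000573, called under 13 of 13 alternatives). ETV5 rose by 0.23 ± 0.071 (edgeR adjusted p = 0.0401) and was called under 5 of 13 alternatives. Without replicate 3 at 0.3 μM there were 4 calls, ETS1 and ETV3 being added, each with an edgeR adjusted p of 0.0302. The share of all genes called without that sample is not reported here. At 0.3 μM the ELF1 values overlapped those of DMSO, so that its difference appeared between the doses as well as against the vehicle. This comparison uses the same 1 μM samples as the one against DMSO, and both comparisons against the vehicle use the same DMSO samples.

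The start regions of 7 of the 10 members were matched by symbol in RefSeq (GRCh38.p14) as windows of 300 bases, from 250 before to 50 after a start site. ETS1, ETV4 and ETV5 were not matched. The windows of the 3 called members with an entry are shown, each the one nearest to the deposited gene start, and that of GABPA, the only matched member with the long ETS consensus. Capitals mark the core GGAA or its reverse complement TTCC, and in GABPA the whole consensus match.
ELF1, chr13:41061337-41061636, minus strand: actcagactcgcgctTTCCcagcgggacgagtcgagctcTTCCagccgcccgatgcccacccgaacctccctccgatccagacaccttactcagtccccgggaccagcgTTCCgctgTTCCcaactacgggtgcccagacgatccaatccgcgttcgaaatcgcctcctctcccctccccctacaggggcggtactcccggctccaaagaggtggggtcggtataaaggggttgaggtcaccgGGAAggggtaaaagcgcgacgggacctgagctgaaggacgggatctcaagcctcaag
ETV3, chr1:157138346-157138645, minus strand: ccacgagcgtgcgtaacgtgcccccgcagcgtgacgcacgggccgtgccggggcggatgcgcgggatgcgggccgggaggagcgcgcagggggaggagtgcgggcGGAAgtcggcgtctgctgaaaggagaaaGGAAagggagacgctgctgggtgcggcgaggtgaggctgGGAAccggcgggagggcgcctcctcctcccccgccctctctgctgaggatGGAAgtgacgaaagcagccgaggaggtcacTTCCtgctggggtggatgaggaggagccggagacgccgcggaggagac
ELK3, chr12:96194125-96194424, plus strand: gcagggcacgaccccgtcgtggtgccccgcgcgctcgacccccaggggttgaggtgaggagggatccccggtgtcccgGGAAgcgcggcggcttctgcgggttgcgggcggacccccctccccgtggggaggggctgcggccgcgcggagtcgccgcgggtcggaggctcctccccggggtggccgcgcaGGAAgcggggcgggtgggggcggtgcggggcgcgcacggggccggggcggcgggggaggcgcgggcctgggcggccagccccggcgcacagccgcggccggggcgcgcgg
GABPA, chr21:25734722-25735021, plus strand: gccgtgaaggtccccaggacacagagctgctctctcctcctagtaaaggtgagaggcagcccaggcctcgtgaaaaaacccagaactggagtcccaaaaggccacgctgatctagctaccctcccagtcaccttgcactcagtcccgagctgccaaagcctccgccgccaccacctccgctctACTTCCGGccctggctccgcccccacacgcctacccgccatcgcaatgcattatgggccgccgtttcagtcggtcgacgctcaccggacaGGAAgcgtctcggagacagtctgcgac
The consensus CCGGAAGT or its reverse complement ACTTCCGG was in 4.14% of all 35116 windows. The 7 matched members had 15 windows, and 1 of these, that of GABPA, held it, which describes that window alone. The match lay 67 bases before the RefSeq start site of GABPA, which is 402 bases downstream of the deposited gene start. The core itself was in 95.5% of windows, with a median of 3 matches, against 5 matches in ELF1, 5 in ETV3, 2 in ELK3 and 2 in GABPA. The AP-1 motif TGACTCA (reverse complement TGAGTCA), present in 4.95% of windows, was in 1 of those 15 windows, at ELF4. The CRE motif TGACGTCA, present in 1.85%, was in 0.

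Of the 18 other ETS genes, 7 were tested at 1 μM and 0 were called in edgeR, where 17.6% of all genes were called. With 7 genes, 0 calls lie near that share and set no contrast with the members. An unadjusted p under 0.05 was found in 1 of the 7, and in 4985 of all 15617 genes tested. DESeq2 and limma also called 0. The remaining 11 had at most 19 counts in any sample, and ELF5 and SPIB had 0 counts in all 9. Among those tested, FLI1, the gene fused to EWSR1 in Ewing's sarcoma, had 5.61 ± 0.21 FPKM in DMSO and 5.63 ± 0.2 FPKM at 1 μM, a log2 difference of -0.01 with a 95% confidence interval from -0.16 to 0.14. ELK1 had 5.96 and 6.66 FPKM, ETV6, a repressor, 5.70 and 6.45 FPKM, ETV1 4.01 and 4.13 FPKM and ELF2 3.75 and 3.59 FPKM in the same groups. ELF3, an epithelial ETS factor, had 0.895 ± 0.023 FPKM in DMSO and 1.14 ± 0.189 FPKM at 1 μM, a log2 difference of 0.34 that did not pass (edgeR adjusted p = 0.130). Its antisense neighbour ELF3-AS1 covers 9.2% of its exon bases and had 15 to 49 counts per sample against 100 to 180 for ELF3. ELF3-AS1 differed by -1.15 ± 0.306 at 1 μM (edgeR adjusted p = 0.0186). Its part in the ELF3 value was not tested.

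Partners that ETS factors bind on DNA or through their activation domains gave 1 call. Of 11 tested, JUN, the AP-1 subunit, rose, with 88.1, 85.3 and 76.3 FPKM in DMSO and 106.4, 111.9 and 112.9 FPKM at 1 μM. JUN differed by 0.39 ± 0.063 (edgeR adjusted p = 0.000896). DESeq2 called 3 of the 11, the acetyltransferase genes CREBBP and EP300 being added, which differed by 0.23 and 0.16 in edgeR (adjusted p = 0.0556 and 0.0545). The list median was 0.11 against -0.01 over all genes, and 1 of 11 is near the 7.67% of all genes called higher, so the count says nothing particular about partners. DHX9, which encodes RNA helicase A, lies outside the naming rule and is given because the compound was made against its binding: it differed by 0.07, with a 95% confidence interval from -0.05 to 0.19 (edgeR adjusted p = 0.430).

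Among 14 tested regulators of ETS protein or PEA3 transcription, 1 rose and 1 fell, with a median of 0.06, where 17.6% of all genes were called in either direction. TRIB1, a pseudokinase adaptor of COP1, had 5.39, 4.68 and 5.31 FPKM in DMSO and 7.61, 7.93 and 7.95 FPKM at 1 μM, a rise of 0.59 ± 0.085 (edgeR adjusted p = 0.000401).

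Genes commonly read as ERK output gave 8 calls, all higher. ERK activity itself was not measured. This list, like the others, was written with earlier results of these data known, so its count is not independent evidence. Of 14 genes listed, without the ETS members, 13 were tested and their median difference was 0.44, where 7.67% of all genes were called higher. The largest rises were those of DUSP5, an ERK phosphatase, by 1.17 ± 0.112, and IER3, an early response gene, by 0.93 ± 0.075 (edgeR adjusted p = 1.9e-05 and 9.51e-06). DUSP5 had 4.26, 4.34 and 5.67 FPKM in DMSO and 10.04, 11.1 and 11.3 FPKM at 1 μM, with no overlap. DUSP4, a second phosphatase of this class, rose by 0.73 ± 0.18, and SPRY4, a feedback inhibitor of receptor signalling, by 0.54 ± 0.081. EPHA2, a receptor tyrosine kinase, rose by 0.47 ± 0.068, and DUSP6, the cytoplasmic ERK phosphatase, by 0.44 ± 0.12. DUSP4 lost its call without 1 μM replicate 2 and DUSP6 without 1 μM replicate 1 (edgeR adjusted p = 0.0729 and 0.0875). DUSP6 also lost its call in limma at both pseudocounts (adjusted p = 0.0589 and 0.0594). ETV4 and ETV5, which belong to ERK output by their usual regulation, differed by 0.17 and 0.20, where the list ran from 0.11 to 1.17. Both lay below the list median of 0.44 and below each of the 8 called genes, and ETV4 was not called.

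Immediate early genes that ternary complex factors serve with SRF gave 3 calls. Of 9 listed, 7 were tested, 3 rose and 0 fell, where 7.67% of all genes were called higher, and the median was 0.70 against -0.01 over all genes. EGR1, an early response zinc finger factor, had 2, 14 and 7 counts in DMSO, 4, 8 and 12 counts at 0.3 μM and 76, 74 and 52 counts at 1 μM. The groups at DMSO and 1 μM stood apart by 3.10 ± 0.39 on the log2 scale (edgeR adjusted p = 0.000159), at a level of 1.22 ± 0.209 FPKM. FOS and JUNB, AP-1 subunits, rose by 0.99 ± 0.22 and 0.83 ± 0.069 (edgeR adjusted p = 0.00719 and 9.51e-06).

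Of 7 GABP target genes, all tested, 0 rose and 1 fell, with a median of -0.07 against -0.01 over all genes. As 9.95% of all genes were called lower, 1 of 7 is near the background and no result about GABP targets. The gene was TYMS, thymidylate synthase, with 35.1, 38.75 and 34.9 FPKM in DMSO and 31.35, 29.9 and 26.5 FPKM at 1 μM. TYMS fell by 0.33 on the log2 scale (SE 0.073; edgeR adjusted p = 0.00737) and lost its call without 1 μM replicate 3 (edgeR adjusted p = 0.0523).

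Of 12 ETS target genes of matrix, vessel or telomerase biology, 9 were tested, 5 rose and 1 fell, where 7.67% of all genes were called higher and 9.95% lower, and the median was 0.21 against -0.01 over all genes. PLAU, the urokinase protease, had 57.0, 61.1 and 61.6 FPKM in DMSO and 91.9, 84.0 and 80.9 FPKM at 1 μM, a rise of 0.50 ± 0.061 (edgeR adjusted p = 0.000129). PLAUR, the receptor of PLAU, rose by 0.21 ± 0.057. VEGFA, the vessel growth factor, rose by 0.45 ± 0.083, and HMOX1, heme oxygenase, by 0.36 ± 0.103. With 1 sample left out, PLAUR lost its call without DMSO replicate 3, 1 μM replicate 2 or 1 μM replicate 3 and HMOX1 without DMSO replicate 2, 1 μM replicate 1 or 1 μM replicate 3 (edgeR adjusted p up to 0.0932 and 0.107). TERT went the other way and had 1.34, 1.17 and 1.07 FPKM in DMSO, 1.62, 1.32 and 1.32 FPKM at 0.3 μM and 0.697, 0.766 and 0.642 FPKM at 1 μM. The 1 μM samples lay below the other 6, and TERT fell by 0.78 on the log2 scale against DMSO (SE 0.179; edgeR adjusted p = 0.00826). Its 0.3 μM samples overlapped those of DMSO, with a difference of 0.24 that did not pass (edgeR adjusted p = 0.995). Of the members described as binders of the mutated TERT promoter, GABPA, ETV4 and ETV5 differed at 1 μM by 0.06, 0.17 and 0.20, of which the ETV5 difference passed. The TERT promoter of these cells, which the paper describes as mutated, was not examined here.

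**Figure D5:**
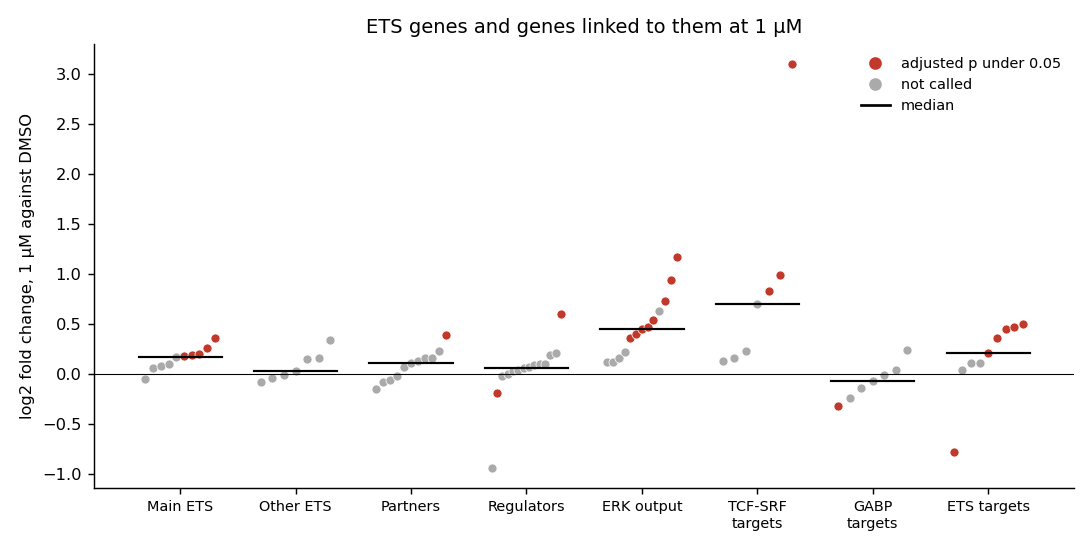
log2 fold change at 1 μM against DMSO of the tested genes of each list; red points have an adjusted p under 0.05 and black bars are list medians. The main ETS genes lie between -0.05 and 0.35, while ERK output genes reach 1.17 and TERT, the lowest ETS target, lies at -0.78.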

How the data were processed

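RNA-seq of 9 KHM-5M samples was used. The authors aligned reads to GRCh38 and obtained gene counts; the methods name HTseq and a stranded kit, whereas the submitters' processing notes name HISAT2 2.0.5, featureCounts 1.5.0-p3 and DESeq2 1.20.0 and the labels name a poly-T kit, so the counter and its strand setting are not settled here. The methods give 2 biological replicates and the labels 3; all 3 were used. The deposited counts are whole numbers without normalization. The deposited FPKM values equal the count per kilobase of the deposited gene length, scaled by DESeq2 size factors over the 9 samples. Columns of the authors' own comparisons (fold changes, p-values) were not used.

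From the counts, edgeR 4.0.16 (R 4.3.3) was run on the 2 groups compared, with filterByExpr at a minimum count of 10, TMM normalization, the quasi-likelihood test and Benjamini-Hochberg adjustment over all genes tested; an adjusted p under 0.05 was a call. Alternatives were DESeq2 1.42.0, RLE size factors, a filter at a count of 1, a fit of all 9 samples together, a replicate block, limma 3.58.1 on log2(FPKM + 0.1) and log2(FPKM + 1), a 1.5-fold cutoff, unadjusted p and each sample left out. Summed FPKM was tested by exact permutation in scipy 1.17.1. Scripts were tested on simulated counts. All members are named; other ETS genes are named where a mean reached 1 FPKM, and from each list at most 6 called genes with the largest differences. Exon overlaps used GENCODE annotation of GRCh38, and promoter windows RefSeq GRCh38.p14. The members and lists were chosen with earlier results of these data known. Some genes that the lists hold and count are not reported here by name.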

Additional observations from a re-analysis of the deposited data

How the results depend on the processing

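The number of members called at 1 μM against DMSO was 3 with all 9 samples fitted together, 2 with the replicate block and 0 with the 1.5-fold cutoff, and 1 to 4 with 1 sample left out. The block ended the calls of ETS1, ETV5 and ELK3 (edgeR adjusted p = 0.0873, 0.0814 and 0.107) and, among ETS targets, that of PLAUR (0.054). At 0.3 μM it was 0 in every setting run. At 1 μM against 0.3 μM it was 1 with the replicate block, 1 with limma at either pseudocount, 0 with the 1.5-fold cutoff and 1 to 4 with 1 sample left out. Same-numbered samples correlated at no more than 0.0817, so the numbers were not taken to pair the samples. A sample correlated best with its own number in 6 of 6 cases between DMSO and 0.3 μM, 2 of 6 between DMSO and 1 μM and 0 of 6 between the doses. Calls at 1 μM among the 11 partners numbered 3 with DESeq2, RLE factors or no filter and 2 with all samples fitted together, against 1 otherwise, and 1 to 2 with 1 sample left out. Among regulators they numbered 1, against 2, with DESeq2, no filter, the replicate block or limma, and 1 to 2 with 1 sample left out, and among GABP targets 0 to 2 with 1 sample left out.

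Differences near 0 changed sign. That of ELF4 between the doses was 0.000155 with DESeq2, 0.00283 without the filter, 4.19e-05 and 3.14e-05 with limma at the small and large pseudocounts, and -0.0329 to 0.0259 with 1 sample left out. With 1 sample left out, ERF at 1 μM ran from -0.0305 to 0.166. In the same way at 0.3 μM against DMSO, ETS1 ran from -0.00734 to 0.198, ETS2 from -0.103 to 0.184, ETV5 from -0.0521 to 0.01999, ETV3 from -0.000214 to 0.156 and GABPA from -0.145 to 0.00647, and between the doses ETS2 ran from -0.221 to 0.0599 and ERF from -0.0674 to 0.118. The cause was not tested.

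Over the 10 members alone the DMSO shares were 25.45% for ETS, 18.8% for the ternary complex factors, 23.9% for ELF, 15.1% for PEA3, 12.9% for ERF and 3.93% for GABP, since fewer genes enter the sum. Between 8 and 10 members kept their DMSO rank without 1 DMSO sample.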
